A study of Mus musculus with 768 samples.

Results

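The Hox genes, 39 of the 24490 endogenous genes in the deposited tables, were taken by symbol: every gene named Hox, a cluster letter from a to d and a number. They fall into the clusters Hoxa (11 genes, chromosome 6), Hoxb (10 genes, chromosome 11), Hoxc (9 genes, chromosome 15) and Hoxd (9 genes, chromosome 2). Their RNA was measured by Smart-seq2, which sequences whole transcripts of 1 cell per well, in 768 wells, equally many from each of 2 mammary tumors of 2 mice of the strain FVB/N-Tg(MMTVPyVT)634Mul/J aged 14 weeks. In this MMTV-PyMT model the polyoma middle T antigen is driven by the mouse mammary tumor virus promoter, mainly in mammary epithelium. Live cells had been sorted as EpCAM-, CD45-, CD31- and NG2-, which removes epithelial, immune, endothelial and NG2-bearing perivascular cells by surface protein. The cells are labelled as cancer-associated fibroblasts and belong to 1 condition, with no control tissue analysed here. Each mouse gave 1 tumor and each tumor filled 1 plate, so comparisons rest on n = 2 tumors, and tumor and plate cannot be told apart.

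Hox genes encode homeodomain transcription factors that set the identity of body regions along the head-to-tail axis. Within a cluster the genes lie in the order in which they act: low-numbered genes at the 3′ end are used early and far forward in the embryo, high-numbered genes at the 5′ end late and far back. Genes of the same number in different clusters are paralogs, the factors bind DNA together with TALE homeodomain partners of the PBX and MEIS families, and fibroblasts of adult tissues keep a Hox pattern that reflects where in the body they came from. The question here was which Hox genes were read in the sorted cells, and whether 3 classes of cells carried the same set.

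Wells with at least 10000 non-ERCC reads were kept, which left 727 cells (51.3% of them from tumor 1) with a median of 219264 and 198180 reads in tumors 1 and 2. Vascular cells were those whose RPKM (reads per kilobase of gene model, scaled to the mapped reads of the well) of Rgs5, a regulator of G-protein signalling typical of mural cells, was at least 100 and at least 4 times the other values. Matrix cells were defined in the same way by Dcn, which encodes the collagen-binding proteoglycan decorin, and Mia/Scrg1-positive cells by the larger of Mia and Scrg1, both genes of cartilage-like cells. No Hox gene entered these definitions. The vascular class held 501 cells (68.9% of the kept cells, 52.3% of them from tumor 1). The matrix class held 82 and 81 cells and the Mia/Scrg1-positive class 5 and 16 cells of tumors 1 and 2, and 42 kept cells fell into no class. Of the 727 cells, 35 lay within a factor of 2 of a limit that set their class. In vascular cells 10 vascular marker genes summed to a median RPKM of 9978 and 10022 in tumors 1 and 2 and 10 matrix marker genes to 10.9 and 15.9. In matrix cells the same lists gave 51.8 and 45.8, and 8140 and 6671. These sums include Rgs5 and Dcn, which set the classes, and describe them only. Of the 21 Mia/Scrg1-positive cells, 18 also had a read of Sox10, and 11 had an RPKM of at least 10 of Epcam, Krt8, Krt18, Krt5 or Krt14, genes of epithelial cells that the sort was meant to remove.

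Of the 39 Hox genes, 31 had at least 1 read in a kept well and 8 had none: Hoxa13, Hoxb13, Hoxc11, Hoxc12, Hoxc13, Hoxd1, Hoxd12 and Hoxd13. A gene was counted as read in a class where at least 5% of its cells in both tumors had a read. By this rule 18 Hox genes were read in vascular cells and 18 in matrix cells, and 16 of them were the same, which is 88.9% of each list. Hoxa5 and Hoxb5 were on the vascular list only, Hoxd3 and Hoxd9 on the matrix list only, and each of these 4 genes also had reads in the other class. The Mia/Scrg1-positive list held 3 genes, Hoxb3, Hoxb4 and Hoxb5, none from the Hoxa, Hoxc or Hoxd cluster.

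To show the DNA in front of genes that differed in this respect, the 250 bases before the RefSeq start (GRCm38.p6, the assembly of mm10, plus strand, 5′ to 3′) are given for 3 genes. Hoxd8 was read in both large classes and had no read in the 21 Mia/Scrg1-positive cells. Hoxb8 had the same pattern at lower levels, and Hoxb4 was read in some cells of all 3 classes. The windows are chr2:74704365-74704614 for Hoxd8, chr11:96281655-96281904 for Hoxb8 and chr11:96318017-96318266 for Hoxb4. Capitals mark a match, on either strand, to TGACAG, a core bound by MEIS factors, or TGATNNAT, a joint PBX-HOX core.
Hoxd8: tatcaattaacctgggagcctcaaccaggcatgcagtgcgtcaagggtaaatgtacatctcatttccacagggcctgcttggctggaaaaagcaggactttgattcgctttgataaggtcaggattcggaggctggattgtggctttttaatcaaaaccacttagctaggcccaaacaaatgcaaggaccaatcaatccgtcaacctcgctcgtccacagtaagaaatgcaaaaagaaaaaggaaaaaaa
Hoxb8: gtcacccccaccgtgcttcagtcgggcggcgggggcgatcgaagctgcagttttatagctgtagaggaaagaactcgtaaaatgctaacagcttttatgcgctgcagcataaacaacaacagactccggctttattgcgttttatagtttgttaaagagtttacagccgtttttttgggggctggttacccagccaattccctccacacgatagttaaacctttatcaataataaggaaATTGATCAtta
Hoxb4: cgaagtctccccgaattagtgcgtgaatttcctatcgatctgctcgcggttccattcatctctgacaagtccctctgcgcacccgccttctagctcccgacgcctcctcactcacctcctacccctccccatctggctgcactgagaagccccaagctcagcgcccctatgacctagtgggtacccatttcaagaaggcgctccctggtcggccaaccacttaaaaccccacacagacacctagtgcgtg
Of these 3 windows, Hoxb8 alone held a match, the single TGATNNAT match close to its start. The table of RefSeq promoters covered 22 of the 39 Hox genes with 24 windows. TGATNNAT was found in 4 of these 24 windows (16.7%) and in 7.68% of 32851 windows of the same length, and TGACAG in 2 of 24 (8.33%) and 15.9%. The Hox windows had a median of 12.5 CG dinucleotides against 6 over all windows. The Hoxd8 window held 6, the Hoxb8 window 12 and the Hoxb4 window 14, so the most widely read of the 3 genes sat at the median of all promoters.

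**Figure D1:**
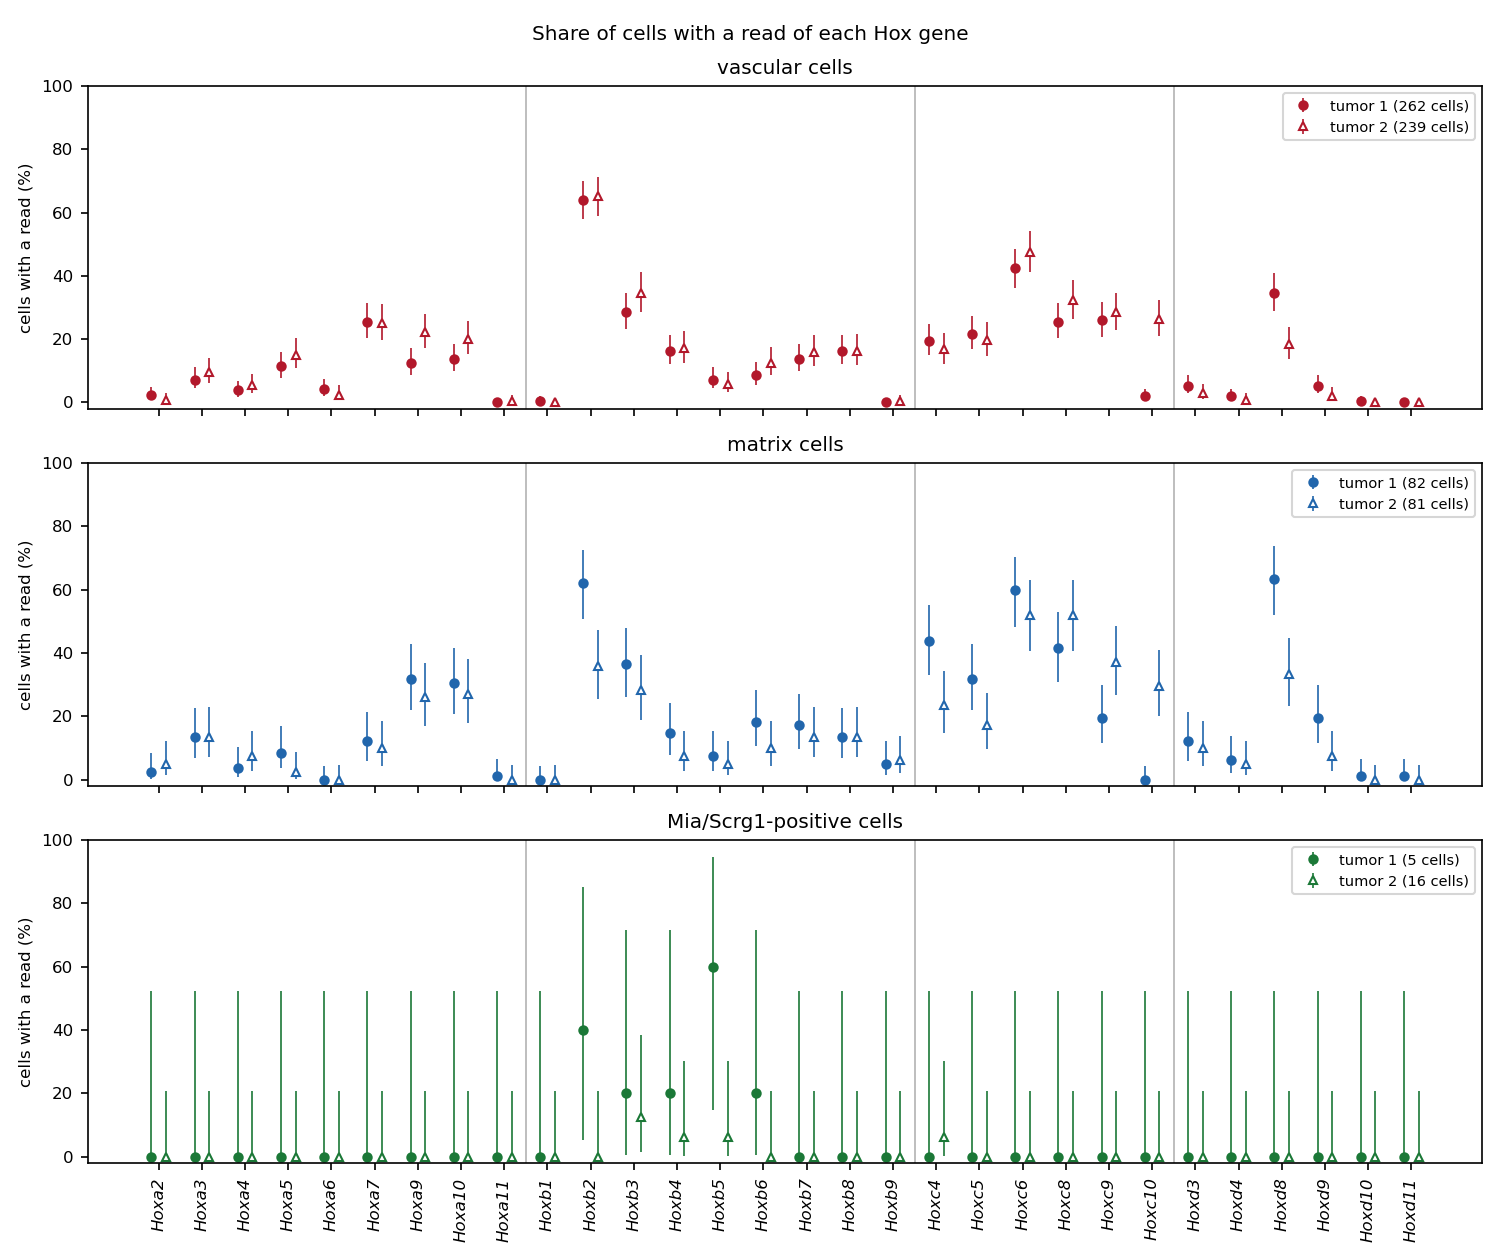
Share of cells with at least 1 read (%) for each of 30 Hox genes read, in order of cluster (grey lines) and number, for vascular (top), matrix (middle) and Mia/Scrg1-positive cells (bottom). Filled circles are tumor 1, open triangles tumor 2, and bars are exact 95% binomial intervals for counting error; vascular and matrix cells were read across all 4 clusters, and the intervals of the 5 Mia/Scrg1-positive cells of tumor 1 reach 52.2% even where no cell had a read.

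Most vascular and matrix cells had Hox RNA. At least 1 Hox gene was read in 97.7% of vascular cells of tumor 1 (exact 95% binomial interval 95.1 to 99.2%) and in 95.4% of tumor 2 (91.9 to 97.7%). In matrix cells the shares were 96.3% (89.7 to 99.2%) and 85.2% (75.6 to 92.1%). All 5 Mia/Scrg1-positive cells of tumor 1 (47.8 to 100%) and 5 of 16 in tumor 2 (31.2%, 11.02 to 58.7%) had a Hox read. The intervals of the tumors overlapped in each class. Reads carry no molecular identifiers, so these intervals, and the limits given for a count of 0, cover counting error only.

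A vascular cell had reads of 4.23 Hox genes on average in tumor 1 and 4.67 in tumor 2, a matrix cell of 5.80 and 4.80, and a Mia/Scrg1-positive cell of 1.60 and 0.438. The matrix cells had the larger totals (median 276162 and 231285 reads, against 203068 and 191893 in vascular cells). After thinning every cell to 50000 reads, which left out 7 and 14 vascular, 5 and 4 matrix, and 0 and 2 Mia/Scrg1-positive cells with fewer, the means were 3.29 and 3.69 in vascular cells, 4.12 and 3.40 in matrix cells, and 1.15 and 0.239 in Mia/Scrg1-positive cells. The matrix means lay above the vascular ones at full depth, the ranges overlapped after thinning, and the Mia/Scrg1-positive cells lay below both in each tumor. No test was run over cells, which are not replicates.

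**Figure D2:**
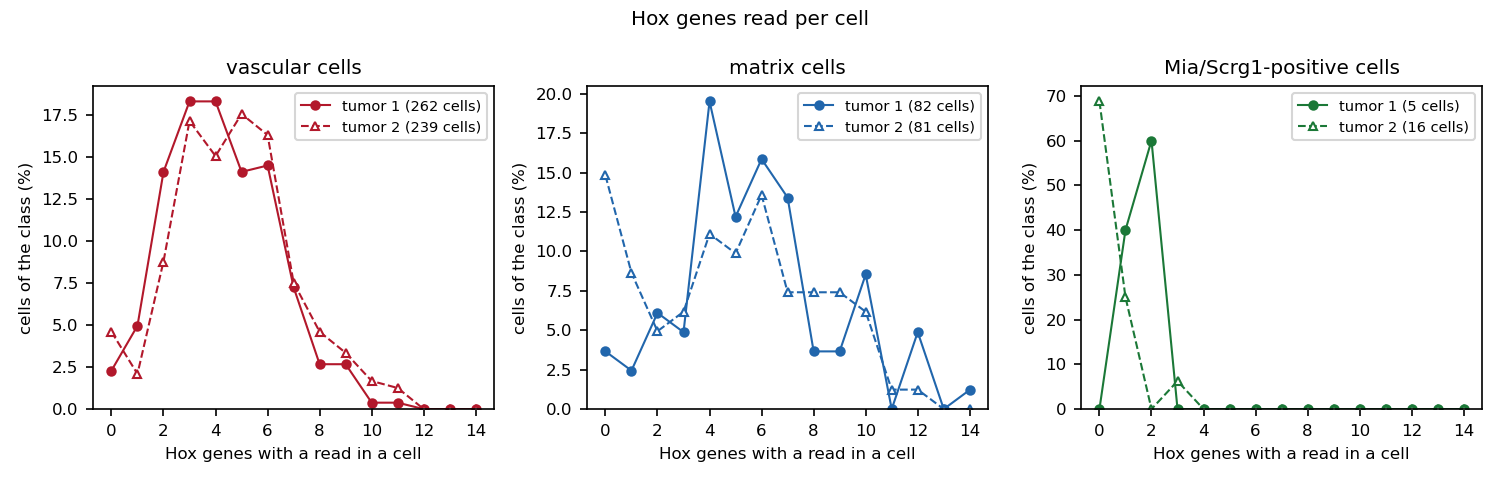
Distribution of the number of Hox genes with a read in a cell (x axis) as a share of the cells of each class (y axis, %), with tumor 1 as filled circles and tumor 2 as open triangles. Vascular cells reached 11 Hox genes and matrix cells 14, and 11 of the 16 Mia/Scrg1-positive cells of tumor 2 had none.

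The middle of the clusters carried most of the RNA. Summed over genes, mean RPKM of paralog groups 4 to 8 made up 62.05% and 56.3% of all Hox RPKM in vascular cells of tumors 1 and 2, and 74.2% and 59.1% in matrix cells. Groups 1 to 3 gave 26.03% and 20.4% in vascular and 9.63% and 13.3% in matrix cells, and groups 9 to 10 gave 11.9% and 23.1%, and 15.8% and 27.6%. Groups 11 to 13 gave at most 0.334% in any of these libraries. The highest-numbered gene above traces in both classes was Hoxa10 in tumor 1, and Hoxa10 and Hoxc10 in tumor 2.

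By cluster, Hoxb genes held 34.1% and 30.5% of the summed Hox RPKM of vascular cells but 16.2% and 18.5% of that of matrix cells, and the ranges did not overlap. Hoxd genes held 18.5% and 9.51% in vascular cells and 37.8% and 20.1% in matrix cells, again without overlap. Hoxc genes held 29.2% and 33.3%, and 32.7% and 40.96%, and Hoxa genes 18.2% and 26.7%, and 13.4% and 20.5%, with overlapping ranges. These shares rest on a few genes, mainly Hoxb2 and Hoxd8, and were not tested.

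**Figure D3:**
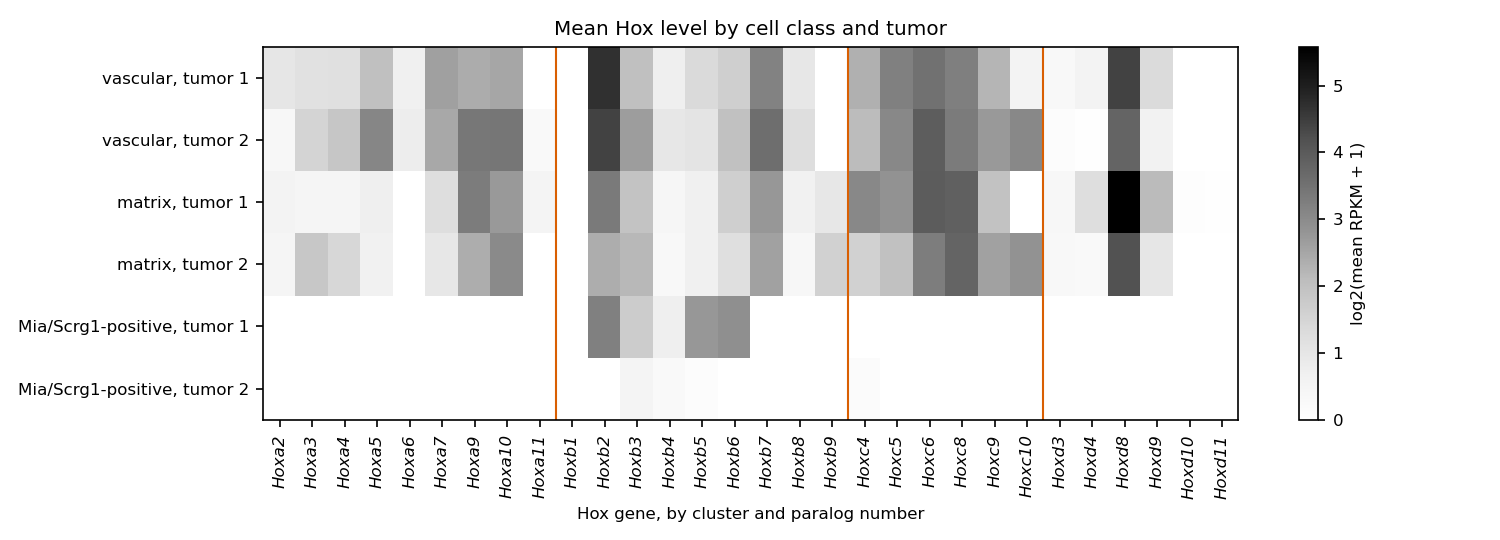
Mean level of 30 Hox genes read, as log2(mean RPKM + 1) in grey from 0 (white) upward, with 1 row for each class and tumor and orange lines between clusters. The 4 vascular and matrix rows are shaded in mostly the same columns (Hoxc10, Hoxa6 and Hoxb9 are exceptions), with Hoxd8 in matrix cells of tumor 1 (mean RPKM 46.7) the darkest, and the 2 Mia/Scrg1-positive rows are white outside Hoxb2 to Hoxb6 and Hoxc4.

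Across the 31 Hox genes read, the mean log2 levels of vascular and matrix cells correlated with Pearson r = 0.882 and Spearman rho = 0.855 in tumor 1 and with r = 0.834 and rho = 0.851 in tumor 2. The same class in the 2 tumors gave r = 0.895 and rho = 0.890 for vascular and r = 0.802 and rho = 0.721 for matrix cells, but r = 0.0259 and rho = 0.456 for Mia/Scrg1-positive cells. Vascular and Mia/Scrg1-positive cells gave r = 0.248 in tumor 1 and r = -0.11 in tumor 2, and matrix and Mia/Scrg1-positive cells gave r = 0.0885 and r = -0.02. These values are across genes, which are not independent, and they describe the profiles only.

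Of the 39 Hox genes, 19 reached a mean RPKM of 1 over the kept cells and could be tested, with counts summed per tumor and class into 6 libraries. Between vascular and matrix cells, 0 of these 19 passed edgeR's quasi-likelihood test at a Benjamini-Hochberg adjusted p of 0.05 over 11715 genes, where 4.52% of all genes tested passed in either direction. DESeq2 also called 0, and 0 of the 19 had an unadjusted p under 0.05, against 16.5% of all genes tested. The median log2 difference (vascular minus matrix) of the 19 genes was 0.24 and that of all genes 0.04, with a range from -1.49 for Hoxd9 to 2.22 for Hoxa5. On simulated data of this size the test found 52.8% of genes changed by 2 on the log2 scale and 87.2% of those changed by 3. The changed genes were drawn from those above the median level, with the spread fitted for their level. The 19 Hox genes had a median SE of 0.86, so these shares need not hold for them and may be too high. A difference in a Hox gene of the size seen here could therefore be missed.

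The 3′ genes were led by Hoxb2, which patterns the hindbrain in the embryo. Hoxb2 was read in 64.1% and 65.3% of vascular cells and 62.2% and 35.8% of matrix cells of tumors 1 and 2. Its mean RPKM was 25.0 and 20.4 in vascular and 9.13 and 4.15 in matrix cells. It was the Hox gene of the highest mean RPKM in vascular cells of both tumors, and the ranges of the 2 classes did not overlap, but the log2 difference of 1.41 (SE 1.52) had an adjusted p of 0.836 in edgeR.

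Hoxb3, its neighbour in the cluster, was read in 28.6% and 34.7% of vascular and 36.6% and 28.4% of matrix cells, with a mean RPKM of 3.05 and 5.29 against 2.79 and 3.47. The classes overlapped, and the log2 difference was 0.28 (SE 0.91, edgeR adjusted p = 0.968). Hoxa3, which acts in the pharyngeal arches, was read in 7.25% and 9.62% of vascular and in 13.4% and 13.6% of matrix cells. Its mean RPKM was 1.20 and 1.88, and 0.390 and 2.56, so tumors of 1 class differed more than the classes. Hoxd3 was read in 5.34% and 2.93% of vascular and 12.2% and 9.88% of matrix cells, with a mean RPKM of at most 0.279.

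In the middle of the clusters, Hoxb4, known for its action in blood stem cells, was read in 16.4% and 17.2% of vascular and 14.6% and 7.41% of matrix cells, at a mean RPKM of at most 0.929. Hoxb5 was read in 7.25% and 5.86%, and in 7.32% and 4.94%. Hoxb6 was read in 8.78% and 12.6% of vascular and 18.3% and 9.88% of matrix cells. The classes overlapped for the last 2 genes.

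Hoxa5, which is needed for lung and airway development, had a mean RPKM of 3.03 and 7.63 in vascular and 0.639 and 0.571 in matrix cells. It was read in 11.5% and 15.1% of vascular and 8.54% and 2.47% of matrix cells. Its log2 difference of 2.22 (SE 0.88) was the highest among the 19 genes and had an adjusted p of 0.327 in edgeR. Hoxa7, a gene of thoracic identity, had a mean RPKM of 5.05 and 4.44 in vascular and 1.36 and 0.968 in matrix cells. It was read in 25.6% and 25.1%, and in 12.2% and 9.88%, and its log2 difference was 1.86 (SE 0.79, edgeR adjusted p = 0.370). Both tumors had the higher value of Hoxa5 and Hoxa7 in vascular cells, without overlap, but neither gene passed the test.

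Hoxb7 was read in 13.7% and 15.9% of vascular and 17.1% and 13.6% of matrix cells. At 7.96 and 10.9 against 5.74 and 5.01, its mean RPKM did not overlap between the classes, with a log2 difference of 0.52 (SE 0.66, edgeR adjusted p = 0.878). Hoxb8 was read in 16.4% and 16.3%, and in 13.4% and 13.6%, at a mean RPKM of at most 1.35. These genes of the trunk were thus read in similar shares of both classes.

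The Hoxc cluster gave an unbroken run of genes read in both classes, from Hoxc4 to Hoxc9. Hoxc6, a thoracic gene, was read in 42.4% and 47.7% of vascular and 59.8% and 51.9% of matrix cells, at a mean RPKM of 10.4 and 14.3 and of 14.6 and 8.73. Its log2 difference was -0.26 (SE 0.60, edgeR adjusted p = 0.957), and the classes overlapped in RPKM.

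Hoxc8, which sets lower thoracic identity, was read in 25.6% and 32.2% of vascular and 41.5% and 51.9% of matrix cells. Its mean RPKM was 8.48 and 8.97, and 13.7 and 12.8, and its log2 difference of -0.77 (SE 0.50) had an adjusted p of 0.613 in edgeR. Shares and RPKM lay above the vascular ones in both tumors, but the gene did not pass the test.

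Hoxc4 had a mean RPKM of 3.99 and 3.32 in vascular and 7.36 and 1.99 in matrix cells, with a log2 difference of -0.82 (SE 0.86, edgeR adjusted p = 0.828). Hoxc5 had 8.33 and 7.30, and 6.27 and 2.92, with a log2 difference of 0.69 (SE 0.60, edgeR adjusted p = 0.768). Hoxc9, which marks the thoracic spinal cord, had 3.68 and 5.67, and 2.84 and 4.94, with a log2 difference of -0.09 (SE 0.76, edgeR adjusted p = 0.995). Hoxc4 and Hoxc9 overlapped between the classes, and Hoxc5 was higher in vascular cells of both tumors without passing the test. These genes are close together on chromosome 15, between 102977032 and 103036856 (GRCm38), on the plus strand.

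Hoxd8 had the highest mean RPKM of the Hox genes in matrix cells of both tumors, as Hoxb2 had in vascular cells. It was read in 34.7% and 18.4% of vascular and 63.4% and 33.3% of matrix cells, with a mean RPKM of 20.3 and 12.8 and of 46.7 and 17.1. Within each tumor the matrix cells had the larger value, but the vascular cells of tumor 1 exceeded the matrix cells of tumor 2. The log2 difference was -0.84 (SE 0.52, edgeR adjusted p = 0.592). Hoxd9, its neighbour, was read in 5.34% and 2.09% of vascular and 19.5% and 7.41% of matrix cells. Its log2 difference of -1.49 (SE 0.99) had an adjusted p of 0.633 in edgeR.

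At the 5′ side, Hoxa9, which with its paralogs Hoxb9 and Hoxd9 is needed for mammary gland growth in pregnancy, was read in 12.6% and 22.2% of vascular and 31.7% and 25.9% of matrix cells. Its mean RPKM was 4.20 and 9.42, and 8.90 and 4.17, with a log2 difference of -0.43 (SE 0.70, edgeR adjusted p = 0.919). Hoxa10, which acts in the uterus, was read in 13.7% and 20.1%, and in 30.5% and 27.2%. The mean RPKM of Hoxa10 was 4.62 and 9.59, and 5.61 and 7.05, with a log2 difference of -0.16 (SE 0.63, edgeR adjusted p = 0.975). For both genes the share of matrix cells lay above that of vascular cells in each tumor, while the RPKM ranges overlapped.

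Hoxb9, named here after its values were seen, was read in 4 of 82 and 5 of 81 matrix cells, and in 0.00% and 0.418% of vascular cells. It had 2.39 and 5.72 CPM (reads of the gene scaled to a common library total) in the matrix libraries and 0.00 and 0.0208 CPM in the larger vascular libraries. The count of 0 vascular cells in tumor 1 allows a share of up to 1.15%. Its mean RPKM over the kept cells was under 1, so it was not tested. Hoxa6, also named after its values were seen, was read in 4.20% and 2.51% of vascular cells and in 0 matrix cells of either tumor. The latter allows up to 3.66% and 3.70% of matrix cells, so a difference was not detectable at this depth in tumor 2. The other 9 genes with reads that missed the 5% rule were, Hoxc10 apart, read in at most 7.41% of the vascular or matrix cells of a tumor.

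The Mia/Scrg1-positive cells had a much narrower set of Hox reads. All Hox reads of the 5 cells of tumor 1 (68 reads) fell in Hoxb2 to Hoxb6. Hoxb5 was read in 3 of these cells, Hoxb2 in 2, and Hoxb3, Hoxb4 and Hoxb6 in 1 each. Of the 16 cells of tumor 2, 2 had Hoxb3, and Hoxb4, Hoxb5 and Hoxc4 were read in 1 each. The highest-numbered gene with a read was Hoxb6 in tumor 1 and Hoxb5 in tumor 2, against Hoxa10 or beyond in the other classes.

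The small number of cells limits what a count of 0 shows. Taken as 3 counts of the total, a count of 0 of 5 cells allows a share of up to 60%, and 0 of 16 up to 18.8%, where the upper ends of the exact 95% binomial intervals are 52.2% and 20.6%. Hoxc8 was read in 41.5% and 51.9% of matrix cells, above the second limit, and Hoxd8 in 63.4% and 33.3%, above both. In vascular cells Hoxc6, at 47.7% in tumor 2, and Hoxc8, at 32.2%, also exceeded the 18.8% limit of that tumor. For Hoxa5 (15.1%) or Hoxb8 (16.3%) the cells of tumor 2 could not show the difference.

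In summed counts, 10 of the 19 Hox genes tested were higher in vascular than in Mia/Scrg1-positive cells and 0 lower, where 7.65% of all genes tested were higher (edgeR, adjusted p under 0.05): Hoxa5, Hoxa7, Hoxa9, Hoxa10, Hoxb7, Hoxc5, Hoxc6, Hoxc8, Hoxc9 and Hoxd8. Between matrix and Mia/Scrg1-positive cells 9 were higher in matrix and 0 lower, where 7.96% of all genes were higher: Hoxa9, Hoxa10, Hoxb7, Hoxc4, Hoxc5, Hoxc6, Hoxc8, Hoxc9 and Hoxd8. Since 21 of the 727 cells behind the filter on low values are Mia/Scrg1-positive, genes could pass it through the large classes alone, which favours calls in this direction. Both comparisons share the Mia/Scrg1-positive libraries, and in such sums fewer cells with a gene and less RNA per cell cannot be told apart. With the tumor as a block, which the design calls for since the classes of a tumor come from 1 mouse, 4 of the 10 (Hoxc5, Hoxc6, Hoxc8 and Hoxd8) and 2 of the 9 (Hoxc8 and Hoxd8) passed. DESeq2 called 13 and 12 Hox genes. The shares of all genes that passed with the block or in DESeq2 are not given here, so these counts stand without a background.

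Without the cells that carried epithelial transcripts, an alternative chosen after seeing the data that left 2 and 8 Mia/Scrg1-positive cells, 7 and 5 Hox genes passed, Hoxc5, Hoxc6, Hoxc8, Hoxd8 and Hoxa10 in both comparisons. The part of epithelial transcripts in the Hox pattern was otherwise not tested. The 14 epithelial genes listed summed to a median RPKM of 316.8 and 1254 in the Mia/Scrg1-positive cells, 0.00 and 20.2 in vascular and 8.31 and 26.7 in matrix cells of tumors 1 and 2. Single cells reached 5766 and 32597 in the Mia/Scrg1-positive class, and in its tumor 1 library 5 of the 14 genes, Krt19, Cldn4, Elf5, Csn2 and Wap, were at 0. The 8 glial genes listed summed to a median RPKM of 1046 and 176.3 in the Mia/Scrg1-positive cells and of 0.00 in vascular and matrix cells of both tumors. S100b was read in 4 of 5 and 15 of 16 Mia/Scrg1-positive cells and was the only glial gene listed with a read in those of tumor 1, where 7 of the 8 were at 0. In tumor 2, 4 of the 8 were at 0, Erbb3, Gfra3 and Foxd3 among them, and the part of glial genes in the Hox pattern was not tested.

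The sizes of these differences are lower bounds for reads only. All but Hoxc4 of the genes called had no read in either Mia/Scrg1-positive library. Reads of a gene come from few cells, and 0 of 5 and 0 of 16 cells allow shares of up to 60% and 18.8%. A gene read in a smaller share of a large class could have no read here without a difference between the classes. With 3 reads per library as the floor, which is 2.02 CPM (not corrected for library composition) in tumor 1 and 0.922 in tumor 2, Hoxd8 had 38.3 and 25.8 CPM in vascular cells of tumors 1 and 2, which is at least 18.9-fold higher in tumor 1 (edgeR adjusted p = 0.0107, with the block 0.0267). In matrix cells Hoxd8 was at least 29.5-fold and 37.0-fold higher, at 59.7 and 34.1 CPM (edgeR adjusted p = 0.00987, with the block 0.0283). Every vascular and matrix library thus lay above the floor by more than the tumors differed.

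Hoxc8 was at least 10.7-fold and 30.3-fold higher in vascular cells, at 21.6 and 27.9 CPM (edgeR adjusted p = 0.00963, with the block 0.0368). In matrix cells it was at least 19.7-fold and 31.8-fold higher, at 39.9 and 29.3 CPM (edgeR adjusted p = 0.00942, with the block 0.0370). Hoxc6 was at least 9.61-fold and 23.8-fold higher in vascular cells (edgeR adjusted p = 0.0150, with the block 0.0486) and at least 12.5-fold and 16.5-fold in matrix cells (0.0160 and 0.0533). The call of Hoxc6 in matrix cells was lost with the block.

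Hoxc5 was at least 14.2-fold and 37.2-fold higher in vascular cells (edgeR adjusted p = 0.0126, with the block 0.0424) and at least 10.1-fold and 12.5-fold in matrix cells (0.0173 and 0.0545). Hoxa9 was at least 7.36-fold and 30.4-fold higher in vascular cells (0.0220 and 0.0655, edgeR adjusted p without and with the block) and at least 15.8-fold and 16.3-fold in matrix cells (0.0217 and 0.0675). Hoxa10 was at least 6.60-fold and 19.7-fold higher in vascular (0.0176 and 0.0548) and at least 6.19-fold and 17.8-fold in matrix cells (0.0192 and 0.0582), in the same edgeR fits. These 5′ genes of the Hoxa cluster missed the threshold with the block by a small margin.

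By reads, Hoxb7 was at least 7.03-fold and 21.7-fold higher in vascular cells and at least 5.25-fold and 9.62-fold in matrix cells (edgeR adjusted p = 0.0186 and 0.0237, with the block 0.0606 and 0.0739). Its shares in both classes, at most 17.1%, lay below the 60% and 18.8% that a count of 0 allows. The Mia/Scrg1-positive cells thus could not show a difference in share for Hoxb7. Hoxc9 was at least 3.57-fold and 12.7-fold, and at least 3.13-fold and 11.04-fold higher (0.0314 and 0.0339, edgeR, and with the block 0.0788 and 0.0827). Among the genes called in both comparisons, the lowest bounds were those of Hoxc9 in tumor 1, whose 5 cells gave the smallest library.

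Called in 1 of the 2 comparisons were Hoxa5, Hoxa7 and Hoxc4. Hoxa7 was at least 6.04-fold and 11.8-fold higher in vascular cells, at 12.2 and 10.9 CPM (edgeR adjusted p = 0.0287, with the block 0.0804). In matrix cells, at 3.25 and 1.94 CPM, it had an edgeR adjusted p of 0.0566 without the block. By reads, Hoxa5 was at least 2.43-fold and 11.1-fold higher in vascular cells (edgeR adjusted p = 0.0423, with the block 0.110). In matrix cells, at 1.54 and 1.10 CPM, the edgeR value without the block was 0.102. The Hoxa5 shares of 11.5% and 15.1% in vascular cells lay below the 60% and 18.8% that a count of 0 allows. The Mia/Scrg1-positive cells thus could not show a difference in share for Hoxa5. Hoxc4 had 1 read in the Mia/Scrg1-positive library of tumor 2. It was at 15.0 and 5.56 CPM in matrix cells (edgeR adjusted p = 0.0401, with the block 0.0921) and at 7.51 and 6.82 CPM in vascular cells (0.0521 without the block). All 3 calls were lost with the block. For these 3 genes the vascular and matrix cells themselves did not pass the test of their difference, given above.

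The 3′ Hoxb genes did not pass in either comparison. Hoxb2 had 16.9 CPM in the Mia/Scrg1-positive library of tumor 1, close to the 17.4 CPM of matrix cells there, and 0 in tumor 2 (edgeR adjusted p = 0.387 against vascular and 0.709 against matrix cells). Hoxb3 had 6.74 and 1.23 CPM in the Mia/Scrg1-positive libraries, 9.82 and 21.6 in vascular and 8.77 and 12.4 in matrix cells (0.227 and 0.287, edgeR adjusted p). Hoxb5 had 14.2 and 0.307 CPM, against 4.84 and 1.95 and 1.22 and 1.31 (0.753 and 0.459). Hoxb6 had 6.07 CPM in tumor 1, from 9 reads of 1 cell, and 0 in tumor 2 (0.868 and 0.997). For these 4 genes the 2 Mia/Scrg1-positive libraries differed from each other more than the other classes did, and without tumor 1 Hoxb2 and Hoxb6 would have no read in this class.

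With each gene held at the floor where its library had fewer than 3 reads, the median log2 fold of the 19 Hox genes in vascular over Mia/Scrg1-positive cells was 1.84 in tumor 1 and 4.14 in tumor 2, against 0.13 and -0.05 over all genes tested. For matrix cells the medians were 1.70 and 3.27, against -0.15 and -0.33. A gene that passed the filter on low values through its level in the large classes is favoured in this direction, so these medians describe the genes tested and not all 39.

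Between the tumors, Hoxc10 stood apart. Hoxc10, a gene of lumbar identity at chr15:102966796-102971898 (GRCm38, plus strand), was named after its values were seen. It was read in 5 vascular cells of tumor 1 (1.91%) and 63 of tumor 2 (26.4%), and in 0 of 82 and 24 of 81 matrix cells (29.6% in tumor 2). Its mean RPKM was 0.439 and 7.39 in vascular and 0.00 and 6.34 in matrix cells, and it had no read in the Mia/Scrg1-positive cells. Hoxc10 RNA was thus nearly absent from tumor 1 in both large classes and shared by both in tumor 2.

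In CPM the Hoxc10 values were 1.11 and 16.9 in vascular cells, a 15.3-fold difference, and 0.00 and 12.6 in matrix cells, at least 93.3-fold with the floor of 3 reads. Each value is 1 library, so no test was made. A difference of at least 4-fold in both classes toward tumor 2 was found for 1 of the 19 Hox genes tested and for 0.429% of 11430 genes with a value, and toward tumor 1 for 0 of the 19 and for 0.07% of genes. By the mean of both folds, with the matrix fold taken at the floor of 3 reads, Hoxc10 ranked 9 among the 11430 genes. The annotation holds a joint transcript of Hoxc10 and Hoxc5, and Hoxc5 did not move with Hoxc10, at 28.7 and 34.2 CPM in vascular and 20.3 and 11.5 CPM in matrix cells.

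**Figure D4:**
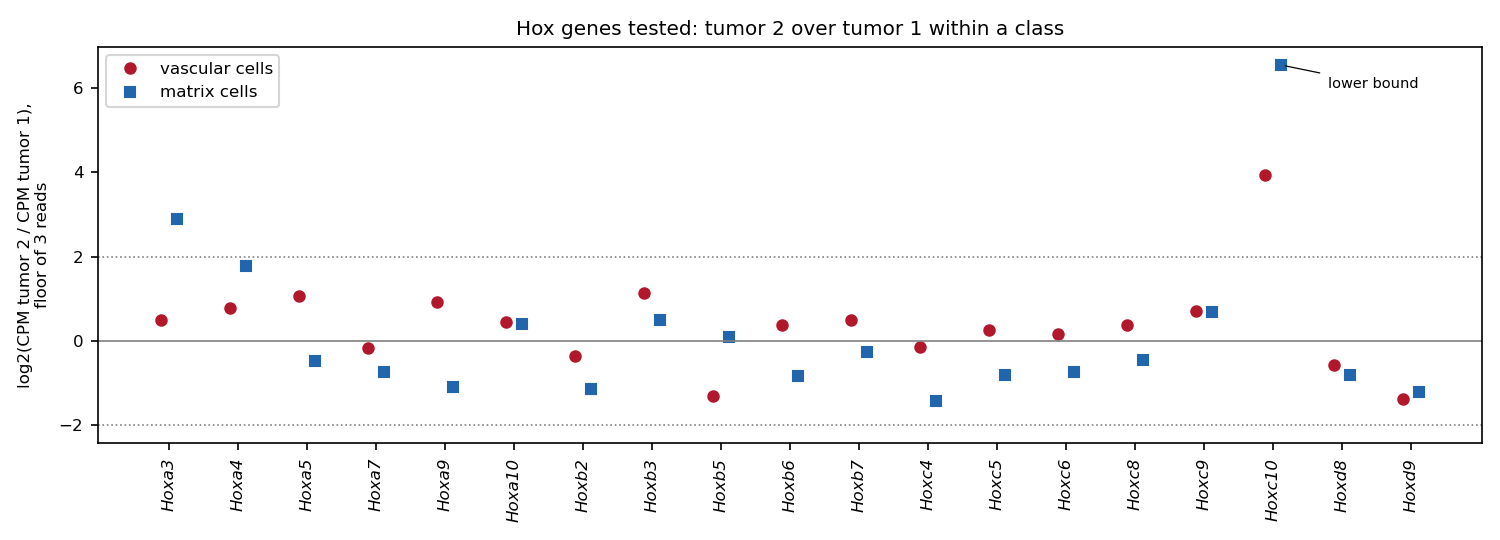
Ratio of tumor 2 to tumor 1 for the 19 Hox genes tested, as log2 of the ratio of CPM with a floor of 3 reads per library, for vascular (red circles) and matrix cells (blue squares), 1 library each. Dotted lines mark 4-fold; Hoxc10 is the only gene beyond the upper line in both classes, and its matrix value is a lower bound.

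Hoxc9, next to Hoxc10 in the cluster, had no such gap, and Hoxc11, on its other side, had no read in a kept well. Hoxc9 was 1.63-fold and 1.61-fold higher in tumor 2 in vascular and matrix cells, and Hoxa10, the paralog of Hoxc10, 1.36-fold and 1.31-fold. Hoxd9 and Hoxd8 went toward tumor 1, with ratios of tumor 2 to tumor 1 of 0.386 and 0.431 for Hoxd9 and 0.674 and 0.571 for Hoxd8. In all, 6 of the 19 genes had the larger value in tumor 2 in both classes and 5 in tumor 1. Hoxc10 was thus the 1 gene among the 19 tested that differed by 4-fold or more in the same direction in both classes. Hoxd4, not tested and named after its values were seen, was at 0.764 and 0.0832 CPM in vascular and 3.48 and 0.682 CPM in matrix cells of tumors 1 and 2.

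Within tumor 2, cells with Hoxc10 had other Hox genes as well. Hoxc9 was read in 36.5% of the 63 vascular cells with Hoxc10 and in 25.6% of the others, and in 58.3% of the 24 matrix cells with Hoxc10 and 28.1% of the others. For Hoxa10 the shares were 19.05% and 20.5% in vascular and 45.8% and 19.3% in matrix cells. For Hoxa9 in cells with and without Hoxa10 the shares were 33.3% and 19.4% in vascular and 50.0% and 16.9% in matrix cells of tumor 2. Cells of 1 tumor share a library preparation and differ in depth, so these shares are given without a test.

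Genes that act with the Hox factors were looked up by list. Of 11 TALE cofactors, 9 were tested and 0 passed between vascular and matrix cells, where 4.52% of all genes did. Meis2 and Meis3, 2 of the 9, were higher in both of these classes than in Mia/Scrg1-positive cells, where 7.65% (vascular) and 7.96% (matrix) of all genes were higher. Meis2 had 26.2 and 23.3 CPM in vascular, 28.4 and 36.7 in matrix and 0.674 and 0.00 in Mia/Scrg1-positive cells (edgeR adjusted p = 0.0164 and 0.0148, with the block 0.0466 and 0.0452). Meis3 had 52.7 and 49.4, 44.8 and 47.8, and 6.74 and 8.91 CPM, log2 differences of 2.83 (SE 0.37) and 2.98 (SE 0.38) in edgeR (adjusted p = 0.0105 and 0.0107). Other cofactors had the larger values in Mia/Scrg1-positive cells without passing, such as Meis1 at 102.5 and 49.8 CPM against 15.2 and 27.6 in vascular cells, named after its values were seen. At an unadjusted p under 0.05, 4 (vascular) and 2 (matrix) of the 9 differed from Mia/Scrg1-positive cells, against 28.2% and 27.2% of all genes tested. DESeq2 called 4 and 3. With the floor of 3 reads, the median log2 fold of the 9 cofactors in vascular over Mia/Scrg1-positive cells was 2.33 in tumor 1 and -0.43 in tumor 2, so the tumors differed in sign. Between vascular and matrix cells 1 of the 9 had an unadjusted p under 0.05, against 16.5% of all genes tested, and DESeq2 called 1. Of 16 Polycomb and trithorax genes, which keep Hox genes silent or active, all 16 were tested and 0 passed edgeR's test in the 3 comparisons. Their counts at an unadjusted p under 0.05 were 0 (vascular and matrix), 3 (vascular and Mia/Scrg1-positive) and 1 (matrix and Mia/Scrg1-positive), against 16.5%, 28.2% and 27.2% of all genes tested, and DESeq2 called 0, 3 and 1.

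Of 30 other transcription factors of limb and body-wall patterning, 14 were tested, and 3 passed between vascular and matrix cells, where 4.52% of all genes did. Prrx2, a homeobox gene of limb and skin mesenchyme, was lower in vascular (2.44 and 1.66 CPM) than in matrix cells (64.5 and 69.9), and Tbx2 (134.1 and 168.4 against 28.9 and 26.3) and Dlx5 (8.56 and 9.69 against 0.00 and 0.00) were higher (edgeR adjusted p = 0.00880, 0.0251 and 0.0419, with the block 0.0301, 0.0588 and 0.113). Against the Mia/Scrg1-positive cells, 6 of the 14 were higher in vascular cells and 0 lower, where 7.65% of all genes were higher and 4.58% lower. In matrix cells 7 were higher and 1, Dlx5, lower, where 7.96% of all genes were higher and 3.04% lower. Tbx18, Tbx3, Tbx15 and Msx1 were among those higher in both. With the block, 3 of the 6 (Tbx18, Tbx3 and Tbx15) and 5 of the 7 (these 3, Prrx2 and Msx1) passed, and Dlx5 did not. Tbx18, a T-box gene of mural cells, had 100.7 and 98.5 CPM in vascular, 130.3 and 105.7 in matrix and 0.00 and 0.615 in Mia/Scrg1-positive cells (edgeR adjusted p = 0.00259 and 0.00274). Tbx3, which is needed to form the mammary placode, had 47.7 and 48.2, 49.7 and 41.1, and 0.00 and 0.615 CPM (0.00566 and 0.00673, edgeR adjusted p). Tbx15 had 72.2 and 49.4, 136.5 and 145.1, and 17.5 and 11.1 CPM, log2 differences of 2.25 (SE 0.37) and 3.75 (SE 0.39) in edgeR (adjusted p = 0.0194 and 0.00671). These 14 genes passed the same filter on low values, which favours genes that are high in the large classes.

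Of 13 noncoding RNAs of the Hox clusters in the tables, 6 had a read in a classed cell, led by Hoxd3os1, read in 66 cells, and Hotair and Hottip had none. None of 9 ParaHox and neighbouring genes, such as Cdx2 and Evx1, had a read. The counting is not stated to use strand, and 16 of the 39 Hox genes share exon bases with another annotated gene, so reads of such pairs cannot be told apart. Among them are Hoxb2 and Hoxb3 with Hoxb3os, Hoxb5 with Hoxb5os, and Hoxd3 with Hoxd3os1, while Hoxc6, Hoxc8 and Hoxd8 overlap none.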

How the data were processed

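Whole-number read counts per gene were deposited without normalization. The authors had aligned single-end reads to mm10 with STAR 2.3.0 and counted on RefSeq genes. The deposited RPKM values are, per the authors, reads per kilobase of gene model, scaled to the mappable reads of the well (rpkmforgenes). Both tables hold 24490 genes and 92 ERCC spike-ins, and 0 columns were left unused. The Hox genes, lists and cell classes were chosen with earlier results of these data known.

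Counts were summed per tumor and class (6 libraries of 1483101 to 55005383 reads). Genes whose mean RPKM over kept cells reached 1 were tested with edgeR 4.0.16 (TMM, glmQLFit, glmQLFTest, R 4.3.3), all classes in 1 fit without covariate, adjusted by Benjamini-Hochberg over all genes. On simulated data 6 of 11515 unchanged genes were called. Where a library had no read, the fold is a bound at 3 reads per library, which holds for reads and not for cells. Classes of a tumor come from 1 mouse, so tumors pair the libraries; deviations from class means correlated within tumors by 0.138 (vascular and matrix), 0.0530 (vascular and Mia/Scrg1-positive) and 0.0232 (matrix and Mia/Scrg1-positive). Alternatives were the tumor block, DESeq2 1.42.0, other scalings, filters, class limits and wells. Expected shares at 50000 reads follow the hypergeometric distribution.

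Hox genes read in at least 5% of cells of a class in both tumors are named with values, in full where the adjusted p was under 0.05 or the mean RPKM among the 10 highest; of the lists, genes past the threshold, at most 5 per list and comparison. Doublets were not called. Values of a few genes are not reported here and are left out of the plots, while counts and sums over genes include them. Wells under 10000 reads and cells in no class entered no comparison. Positions, all 39 matched, are from RefSeq (GRCm38.p6), promoters from RefSeq and exon overlaps from GENCODE vM21.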

Additional observations from a re-analysis of the deposited data

Results flagged for a closer look

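Hox reads also occurred in wells that entered no comparison, and are listed because they exceed the limit that a count of 0 allows, which is no test of whether they are unusual. Of 41 wells under 10000 non-ERCC reads, 12 had a Hox read (29.3%, exact 95% interval 16.1 to 45.5%), 16 reads in all, where a count of 0 would allow 7.32%. Of the 42 kept cells in no class, 27 (64.3%) had a Hox read, 811 reads in all.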

How the results depend on the processing

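Between vascular and matrix cells, 0 Hox genes passed under each alternative run. Against Mia/Scrg1-positive cells the counts of 10 (vascular) and 9 (matrix) moved to 4 and 2 with the tumor as a replicate block and to 0 and 0 at an adjusted p of 0.001. Without cells past the limit on epithelial transcripts, an alternative chosen after seeing the data, they became 7 and 5, with fewer cells. No direction of a called Hox gene reversed under any alternative. This says little, because all of them but Hoxc4 had no read in either Mia/Scrg1-positive library of the main fit. With ERCC reads as the library size, the median of all genes shifted to -0.61 (vascular minus matrix, from 0.04), and the same 10 and 9 genes passed. The 3 genes read in Mia/Scrg1-positive cells became 1 after thinning to 50000 reads and 1 at 10% of cells. They became 1 without cells past the limit on epithelial transcripts, and 5 with either tumor left out. The vascular and matrix lists held 20 and 21 genes with either tumor left out, and 15 and 13 at 10% of cells. With 1 tumor left no spread remains, so those folds carry no test. Without the filter on RPKM 9 and 8 genes passed. Over all alternatives of single genes, 855 values were unchanged. They kept their side of the threshold or, with 1 tumor left out and no test, stayed within 1 SE of the fit. Of the rest, 27 lost a call, 8 gained one and 22 without a test (1 tumor left out) moved by more than 1 SE of the fit. The cause of these moves was not tested.

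The 21 Mia/Scrg1-positive cells limit every statement on genes absent from them, and 2 tumors limit all tests. Reads on overlapping genes cannot be assigned to 1 strand.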
